A study of Mus musculus with 8 samples.

Results

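Transcripts of 9 genes of the B lineage and its product, the antibody, were followed through 8 RNA sequencing libraries of mouse haematopoietic stem cells. They are Igkc, Ighm, Jchain, Ighj4, Cd79a, Cd79b, Ebf1, Pax5 and Blnk, and they were chosen by symbol with their TPM in these libraries known, in particular the uneven TPM of the libraries labelled triple null. All 9 are among the 33641 symbols of the deposited tables, and 7 of the 9 reached 1 TPM in at least 2 libraries, as did 16064 of all symbols. TPM is transcript abundance per length, scaled to a total of 1000000 in each library. It can be compared between genes per length, but how many reads stand behind a value (the depth) is unknown.

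The stem cells came from bone marrow of C57BL/6 mice and were sorted with SLAM surface markers. Every group, wild type included, carried Mx1-Cre, a recombinase gene under an interferon-driven promoter that is active in many cell types besides stem cells. Every mouse received 6 injections of polyI:C, an inducer of interferon, at 10 mg/kg, and cells were taken 1 week after induction. The 4 groups, of 2 libraries each, were wild type, Scribble Δ/Δ (Scribble null), Taz Δ/Δ;Yap1 Δ/Δ (Yap1 Taz null) and Scribble Δ/Δ;Taz Δ/Δ;Yap1 Δ/Δ (triple null). Scribble is a polarity scaffold, and Yap1 and TAZ are co-activators of the Hippo pathway. The labels give no animal ages and do not say whether replicates were separate animals, and the design text speaks of experimental replicates of 1 sample per genotype. A p-value here measures no more than the spread among libraries, possibly a technical one.

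Each library held 14024 to 14970 symbols at 1 TPM or more, and its correlation with its replicate over the tested genes was 0.953 to 0.965. Summed over the 12 stem cell markers, among them Kit, Hlf and Ly6a, the level was 2054 to 2416 TPM in the other 6 libraries and 2530 and 2506 TPM in the triple null. Markers of mature neutrophils summed to 3.71 to 8.27 TPM in the 8 libraries, with S100a8, Retnlg and Mmp8 at 0 in all. Of the targeted genes, Scrib stood at 14.5 and 7.54 TPM in those named triple null, against 8.19 and 9.29 TPM in wild type, so its level does not check the label. Yap1 and Wwtr1, the gene of TAZ, were at 2.25 and 2.37 TPM and at 1.92 and 0.775 TPM in those same libraries, against 2.00 and 2.15 TPM and 0.730 and 1.19 TPM in wild type. In Scribble null, Scrib was at 6.25 and 7.63 TPM and Wwtr1 at 5.32 and 3.91 TPM. In Yap1 Taz null, Yap1 was at 2.13 and 6.63 TPM and Wwtr1 at 1.09 and 1.15 TPM, so the levels of these genes do not check that label either. Each direction below is between libraries as labelled.

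An antibody is built from heavy chains and light chains, and each B cell assembles its own chains by joining variable (V), diversity (D, in heavy chains) and joining (J) segments in front of a constant region. Light chains are either kappa or lambda. The constant region sets the class, which is IgM before class switching, and plasma cells, the secreting end stage of the lineage, make these transcripts in very large amounts. In the marrow, B lineage cells descend from the stem cell through stages in which Ebf1 and Pax5 are switched on first and the receptor chains later. A clone of B cells carries 1 assembled heavy chain and 1 assembled light chain, so its transcripts share their V and J segments. Shared segments do not by themselves identify a clone.

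The segments on which the results turn are short, and their letters show how small the measured targets are. The joining segments below are from the GENCODE M21 transcripts on GRCm38 (mm10), 5′ to 3′ on the gene's strand. Ighj4 (chr12:113428514-113428567, minus strand) and Ighj1 (chr12:113429781-113429833, minus strand) lie 5′ of the constant region Ighm. Igkj1 (chr6:70722562-70722599, plus strand) and Igkj5 (chr6:70723886-70723923, plus strand) lie 5′ of Igkc. Each is a single exon. Capitals mark TGGGG, found on the sense strand of 4 of 4 Ighj segments, and TTCGG, found in 4 of 5 Igkj segments, the letters around the tryptophan or phenylalanine that opens the conserved end of a joining segment.
Ighj4: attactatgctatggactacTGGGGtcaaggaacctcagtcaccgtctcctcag
Ighj1: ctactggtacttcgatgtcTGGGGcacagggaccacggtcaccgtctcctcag
Igkj1: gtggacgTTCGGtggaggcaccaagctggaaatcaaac
Igkj5: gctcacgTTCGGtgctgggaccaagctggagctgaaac

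The heavy-chain variable segments Ighv9-4 (chr12:114299961-114300254, minus strand) and Ighv9-3 (chr12:114140692-114140985, minus strand) are shown because they are close relatives with opposite levels in the triple null libraries. The 294 bases printed for each, from the same build, are identical at 270 positions (91.8%), and capitals mark the 24 bases that differ.
Ighv9-4: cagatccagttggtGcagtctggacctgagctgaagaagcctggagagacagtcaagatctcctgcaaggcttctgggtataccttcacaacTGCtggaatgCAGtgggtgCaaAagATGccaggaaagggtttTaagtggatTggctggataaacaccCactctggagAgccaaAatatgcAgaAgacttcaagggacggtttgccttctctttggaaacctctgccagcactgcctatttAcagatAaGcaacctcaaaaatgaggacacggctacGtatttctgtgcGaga
Ighv9-3: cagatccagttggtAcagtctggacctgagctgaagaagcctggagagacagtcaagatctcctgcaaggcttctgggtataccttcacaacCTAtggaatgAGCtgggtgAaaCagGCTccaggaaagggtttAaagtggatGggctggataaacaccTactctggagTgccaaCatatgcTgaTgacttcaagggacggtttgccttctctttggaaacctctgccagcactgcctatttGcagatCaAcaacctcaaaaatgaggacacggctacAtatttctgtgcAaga

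The highest level among the 9 members was that of Igkc. Igkc (chromosome 6, 70726435 to 70726966, 1 exon of 532 bases), the kappa light-chain constant region, was at 9.19 and 7.69 TPM in wild type, 12.8 and 12.1 TPM in Scribble null, 10.5 and 13.6 TPM in Yap1 Taz null, and 55.6 and 879 TPM in triple null 1 and triple null 2. Both triple null libraries lay above the other 6, which spanned 7.69 to 13.6 TPM, but they differed from each other 15.8-fold. Ighm (chromosome 12, 113418558 to 113422730, minus strand), the constant region of IgM, was at 2.24 and 3.18 TPM in wild type, 2.29 and 2.65 TPM in Scribble null, 1.92 and 8.33 TPM in Yap1 Taz null, and 234 and 8.75 TPM in triple null 1 and 2. Its order was the opposite of that of Igkc, with triple null 1 26.7-fold above triple null 2, and triple null 2 next to Yap1 Taz null 2. In bulk RNA, fewer cells of a type and less RNA per cell cannot be told apart, and this holds for every level given here.

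Jchain (chromosome 5, 88519809 to 88527891, minus strand) encodes the joining chain that links IgM pentamers and IgA dimers, and it lies outside the immunoglobulin loci. It was at 1.10 and 0.795 TPM in wild type, 1.46 and 1.03 TPM in Scribble null, 1.41 and 1.39 TPM in Yap1 Taz null, and 8.004 and 54.7 TPM in triple null 1 and 2. Triple null 2 was the highest, as for Igkc, and triple null 1 also lay above the other 6. Ighj4, the heavy-chain joining segment printed above, stood at 0 in wild type 1 and 2, and was at 6.16 and 5.34 TPM in Scribble null, 12.4 and 12.0 TPM in Yap1 Taz null, and 52.1 and 292 TPM in triple null 1 and 2. The 4 groups did not overlap for this gene, and replicates other than the triple null were close to each other. In the authors' deposited table of the whole series, whose unit is not named, Ighj4 was instead at 0 in wild type and Yap1 Taz null, 1.00 and 0 in Scribble null, and 8.27 and 62.7 in triple null 1 and 2. A target of 54 bases needs few reads to reach such levels per length, and an exact 0 in a table without counts can be a failed estimate, so no fold against wild type is given.

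**Figure D1:**
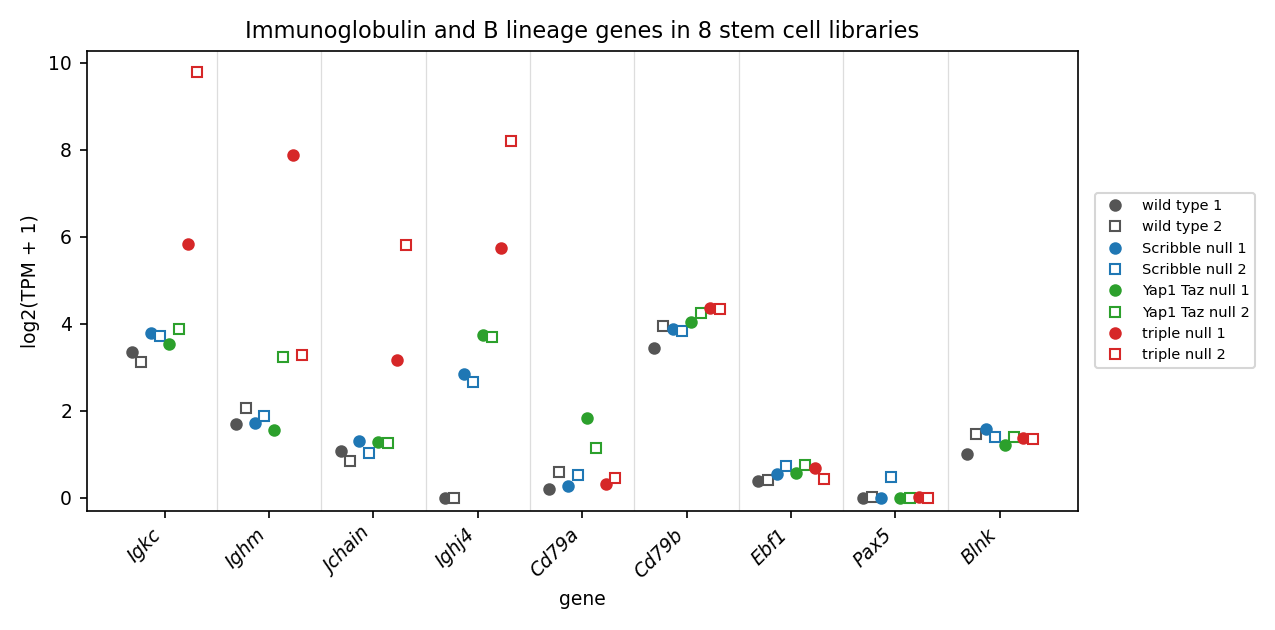
Level of the 9 genes in each of the 8 libraries, as log2(TPM + 1), with colour for genotype, filled circles for replicate 1 and open squares for replicate 2. Igkc, Jchain and Ighj4 are highest in triple null 2, at 879, 54.7 and 292 TPM, and Ighm in triple null 1, at 234 TPM, while Ebf1, Pax5 and Blnk stay below 2 TPM in the 8 libraries.

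The receptor partners did not follow the antibody chains. Cd79b (chromosome 11, 106311341 to 106314762, minus strand), which with Cd79a forms the signalling part of the B cell receptor, was at 9.80 and 14.4 TPM in wild type, 13.7 and 13.1 TPM in Scribble null, 15.4 and 17.8 TPM in Yap1 Taz null, and 19.6 and 19.0 TPM in triple null 1 and 2. The triple null libraries were again the highest, at 19.3 ± 0.446 TPM against 12.1 ± 3.27 TPM in wild type (mean ± SD, n = 2), but here they lay close together. Cd79a (chromosome 7, 24897381 to 24902197) was at 0.143 and 0.506 TPM in wild type, 0.210 and 0.424 TPM in Scribble null, 2.55 and 1.21 TPM in Yap1 Taz null, and 0.248 and 0.359 TPM in triple null. The Yap1 Taz null libraries held its highest levels, and those of the triple null lay within the range of wild type.

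The adaptor and the transcription factors were low in the 8 libraries. Blnk (chromosome 19, 40928927 to 40994535, minus strand), the adaptor that links the receptor's kinase Syk to its downstream enzymes, was at 0.990 and 1.75 TPM in wild type, 1.99 and 1.62 TPM in Scribble null, 1.32 and 1.61 TPM in Yap1 Taz null, and 1.59 and 1.53 TPM in triple null, so the groups overlapped. Ebf1 (chromosome 11, 44617317 to 45008091), a factor that commits progenitors to the B lineage, was at 0.307 and 0.326 TPM in wild type and at 0.344 to 0.671 TPM in the 6 null libraries, with 0.598 and 0.344 TPM in triple null 1 and 2. Both wild-type values were the lowest of the 8, at a level under the 1 TPM minimum throughout. Pax5 (chromosome 4, 44524757 to 44710487, minus strand), the factor that holds B cell identity, was listed at 0 in 5 libraries, and its highest value was 0.392 TPM in Scribble null 2. In the triple null it was at 0.0157 TPM in library 1 and 0 in library 2. Ebf1 and Pax5 were therefore not tested.

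The gap between the triple null libraries was given for each gene as the log2(TPM + 1) value of library 1 minus that of library 2. It was −3.96 for Igkc, −2.63 for Jchain and −2.46 for Ighj4, and 4.59 for Ighm. Of the 16064 tested genes, 16 had a gap at least as large as that of Igkc and 9 one at least as large as that of Ighm, counting the gene itself. For Jchain and Ighj4 the numbers were 75 and 101. Cd79a, Cd79b and Blnk, with gaps of −0.12, 0.04 and 0.04, lay below the median absolute gap of all tested genes, 0.24. Ebf1 and Pax5, too low to be tested, had gaps of 0.25 and 0.02. Since the members were listed for this gap, these ranks are a description.

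Among the other replicate pairs, the gap of Igkc was 0.23 in wild type, 0.08 in Scribble null and −0.34 in Yap1 Taz null. That of Ighm was −0.37, −0.15 and −1.67, so Ighm also differed between the Yap1 Taz null libraries, at 1.92 and 8.33 TPM. Jchain and Ighj4 gaps did not exceed 0.28 in size in these 3 pairs.

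The unevenness extended to some other immunoglobulin genes but not to all. The tables list 393 symbols of immunoglobulin V, D and J segments and constant regions, of which 330 were at 0 in the 8 libraries and 24 were tested. Their levels summed to 53.8 and 105 TPM in wild type, 148 and 133 TPM in Scribble null, 170 and 129 TPM in Yap1 Taz null, and 1200 and 3723 TPM in triple null 1 and 2. In the triple null libraries this was 0.12% and 0.372% of the total. D segments, which are very short, summed to 0 in each library. Some tested V segments, named after their values were seen, had small gaps between the triple null libraries. The gap was −0.12 for Ighv6-3, 0.03 for Ighv6-4, 0.23 for Igkv2-137, −0.64 for Igkv6-25 and −0.67 for Igkv8-28.

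Of the 15 genes that reached 50 TPM in a triple null library (14 immunoglobulin genes and Jchain), 10 were highest in triple null 2 and 5 in triple null 1. Beside Igkc, Ighj4 and Jchain, triple null 2 was the highest for Igha, the IgA constant region, at 558 TPM against 53.8 TPM in triple null 1. It was also the highest for the heavy-chain variable segment Ighv9-4, at 476 TPM against 18.3 TPM, and for the kappa variable segments Igkv1-117, at 383 against 10.3 TPM, and Igkv14-111, at 243 against 11.1 TPM. The kappa joining segments Igkj1 and Igkj5 were at 420 and 322 TPM there, against 13.0 and 33.7 TPM. Ighv8-8, another heavy-chain variable segment, was at 81.2 against 4.44 TPM. The folds of triple null 2 over triple null 1 ran from 5.6 for Ighj4 to 37.0 for Igkv1-117.

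The 5 genes highest in triple null 1 were Ighm, Iglv2, Iglc2, Ighj1 and Ighv9-3. Iglv2, a lambda variable segment, was at 204 TPM in triple null 1 and 9.82 TPM in triple null 2. Iglc2, a lambda constant region, was at 187 against 7.58 TPM. Ighj1, a heavy-chain joining segment, was at 182 against 5.47 TPM, and Ighv9-3 at 97.8 against 1.89 TPM. Ighj1 was named after its values were seen. The genes highest in triple null 1 were thus the IgM constant region, a lambda constant region and a lambda V segment, and a heavy-chain V and J segment. Those highest in triple null 2 were the IgA and kappa constant regions, kappa V and J segments, 2 heavy-chain V segments, Ighj4 and Jchain. Which segments were joined in 1 transcript cannot be read from levels per gene. Large gaps of Igkj1, Igkj5 and Ighj1 were also found in other replicate pairs. The log2(TPM + 1) gap of Igkj1 was −4.91 in the triple null and −4.23 in wild type. In Scribble null and Yap1 Taz null it was −0.25 and 4.29. That of Igkj5 was −3.22, −0.66, 3.98 and −5.45 in the same order. For Ighj1 the gaps were 4.82, −3.97, −2.72 and −2.86.

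**Figure D2:**
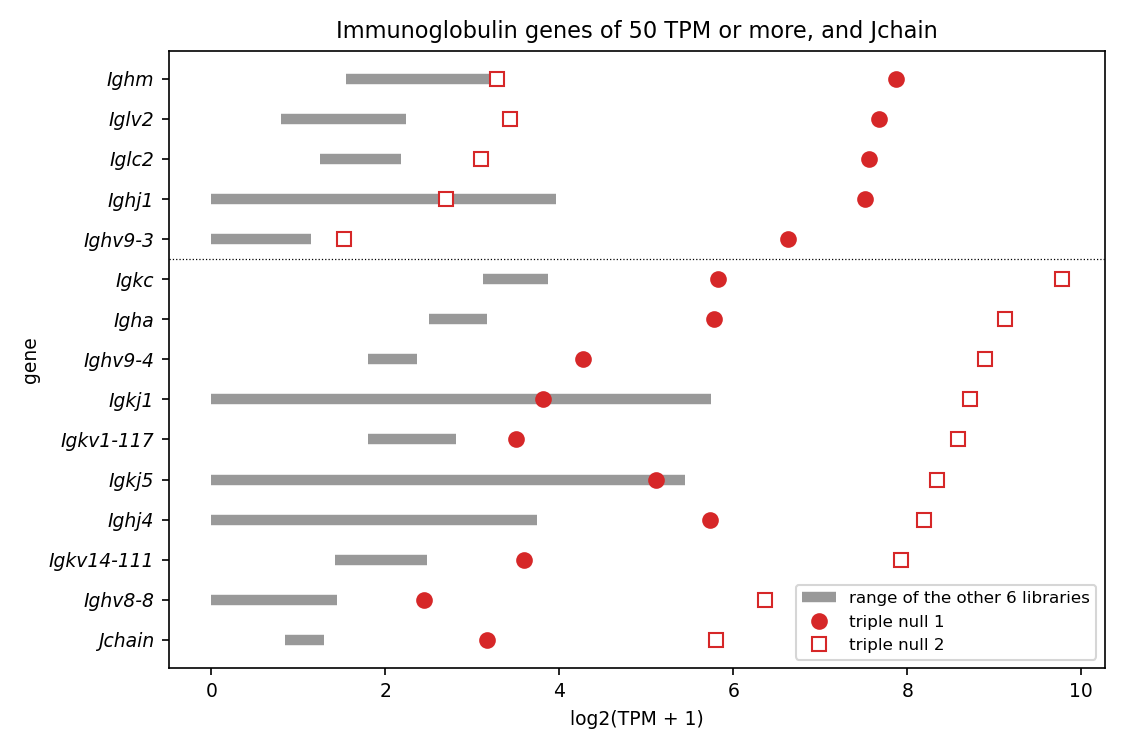
Level of the 14 immunoglobulin genes of 50 TPM or more and of Jchain as log2(TPM + 1), with a filled circle for triple null 1, an open square for triple null 2 and a grey bar from the lowest to the highest of the other 6 libraries. The 5 genes above the dotted line are highest in triple null 1 and the 10 below it in triple null 2, and the bars of Igkj1, Igkj5 and Ighj1 reach the level of the lower triple null library.

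The sequences printed above bear on how separately these segments were measured. Ighv9-4 and Ighv9-3 differ at 24 of 294 bases, and their levels ran in opposite directions in the triple null libraries. The closest other gene to Ighv9-3 was Ighv9-2, at 94.3% identity and at most 0.284 TPM. Igkv1-117, Iglv2 and Ighv8-8 each had a relative of at least 95% identity, namely Igkv1-110 (97.5%), Iglv1 (97.0%) and Ighv8-5 (96.1%), and how reads shared by such copies were assigned is not given in the sources used here. Iglc3, 94.9% identical to Iglc2, was at 0.538 and 4.76 TPM in triple null 1 and 2. Levels of these genes are uncertain to that extent.

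The ratio of light-chain types put the libraries in the same order. In triple null 2, Igkc was 69.9-fold above the sum of the Iglc genes, and in triple null 1 the Iglc sum was 3.39-fold above Igkc. In the other 6 libraries Igkc was 3.22-fold to 6.68-fold above the Iglc sum. For the heavy-chain class, Igha was 63.8-fold above Ighm in triple null 2, and Ighm was 4.35-fold above Igha in triple null 1. Elsewhere the fold of Igha over Ighm was between 0.960 and 3.19. Of the constant regions of the other classes, Ighg1, Ighg3 and Ighe were at 0 in the 8 libraries, and Ighd, Ighg2b and Ighg2c did not exceed 0.553 TPM.

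The same genes were present at low levels outside the triple null libraries. For the 10 genes highest in triple null 2, the median level of the other 6 libraries was 0.671% to 4.34% of the triple null 2 level, with a median over genes of 1.39%. For the 5 highest in triple null 1 it was 0.396% to 1.53%, with a median of 1.06%. Igkc lay at 0.875% to 1.54% of its triple null 2 level in the 6, Igha at 0.836% to 1.43% and Ighv9-4 at 0.522% to 0.870%. Ighm lay at 0.823% to 3.56% of its triple null 1 level, with the highest value in Yap1 Taz null 2. All 8 libraries carry the same sequencing run and lane name, and the part of a shared lane in these low levels was not tested. The joining segments scattered more: Igkj1 was at 0 in 2 of the 6 libraries and reached 12.6% in Scribble null 2, and Igkj5 reached 13.2% in Yap1 Taz null 2.

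**Figure D3:**
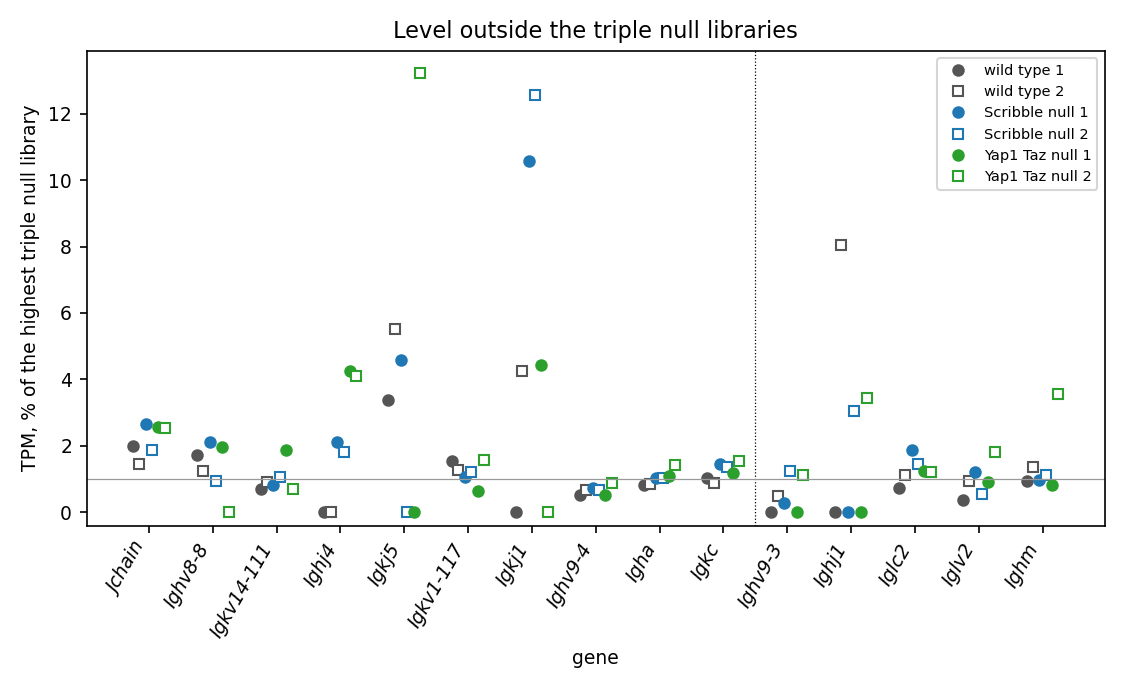
TPM of the same 15 genes in the 6 wild-type, Scribble null and Yap1 Taz null libraries, as a percentage of the level in the highest triple null library, with a grey line at 1%. Points of Igkc, Igha and Ighv9-4 lie between 0.522% and 1.54%, and those of the short joining segments range from 0 to 13.2%.

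Set against wild type across all genes with limma on log2(TPM + 1), with Benjamini-Hochberg adjustment over the 16064 genes and a call at an adjusted p under 0.05, 0 of the 7 members tested were called in Scribble null, where 1.3% of all genes were called (209 genes, 0.591% higher and 0.71% lower). In Yap1 Taz null 1 member, Ighj4, was called higher, where 0.99% of genes were called (0.473% higher and 0.517% lower). In the triple null 1 member, again Ighj4, was called higher, where 0.579% of genes were called (0.224% higher and 0.355% lower). An unadjusted p under 0.05 was found for 1, 2 and 5 of the 7, where 18.2%, 14.3% and 10.9% of all tested genes had one. These contrasts hold the values by which the members were listed, they share the wild-type libraries, and nothing is read from the counts. The fit uses a common spread per gene over the 4 groups, so the gap between the triple null libraries enters the standard error of every comparison. For Igkc that gap was −3.96, against 0.23 in wild type, 0.08 in Scribble null and −0.34 in Yap1 Taz null. For members with such a gap, a missing call in Scribble null or Yap1 Taz null therefore cannot decide whether their level changed. The Yap1 Taz null call was lost without either wild-type library, either Scribble null library or either Yap1 Taz null library, and also with the replicate block, with no filter, under median-ratio and quantile scaling and in the table of the whole series. The triple null call was lost in the table of the whole series. The triple null count was 3 without triple null 1 (Ighj4, Igkc and Jchain) or without triple null 2 (Ighj4, Ighm and Igkc), where the remaining library is likewise assumed to vary like the other groups.

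Of the 390 immunoglobulin genes outside the members, 21 were tested and 0 were called in each of the 3 comparisons with limma. Here too the gap between the triple null libraries enters the spread used for Scribble null and Yap1 Taz null. An unadjusted p under 0.05 with a higher level was found for 1 of them in Scribble null, 1 in Yap1 Taz null and 12 in the triple null, where 18.2%, 14.3% and 10.9% of all tested genes passed in either direction. Of the 24 immunoglobulin genes tested, 5 would have failed the filter on low values without the triple null libraries, so nothing is read from the last count. Igha had the smallest adjusted p in the triple null, 0.0633, with a mean log2 difference of 4.94, and 0.0374 with a filter of 5 TPM. With either triple null library left out it was 0.000247 (without library 1) or 0.0152 (without library 2), but the remaining library is then assumed to vary like the other groups, and the gap between the triple null libraries no longer enters. Both triple null libraries lay above the other 6 for 5 of the 9 members (Igkc, Ighm, Jchain, Ighj4 and Cd79b), which were listed for these values, and for 4.23% of all tested genes.

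**Figure D4:**
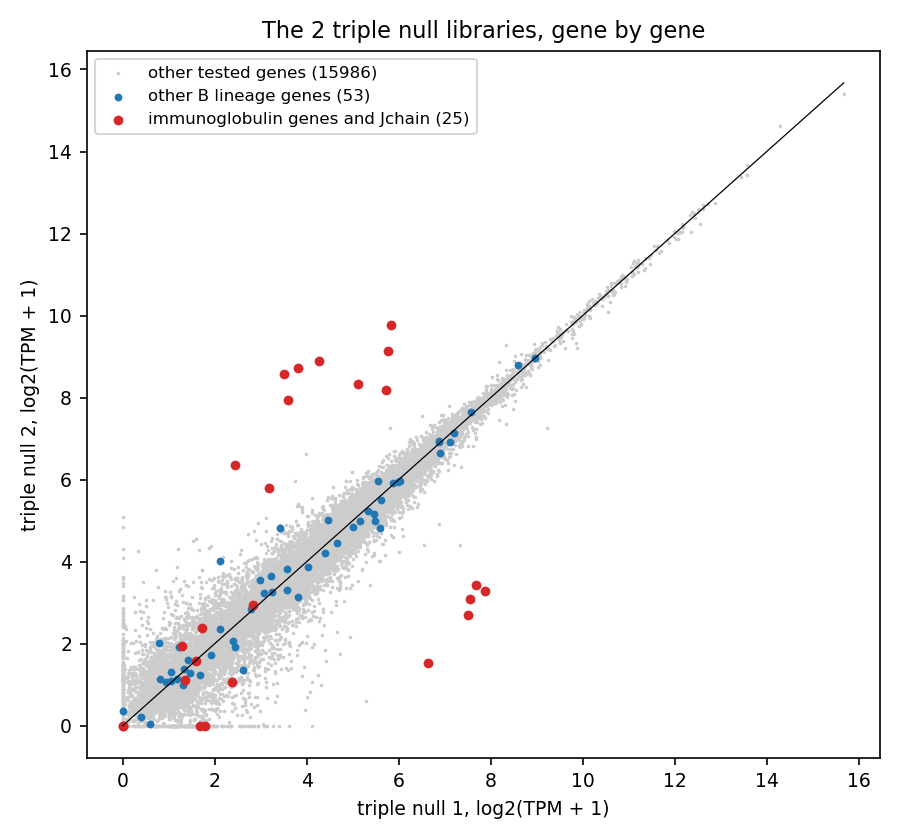
Each of the 16064 tested genes by its level in triple null 1 (horizontal) and triple null 2 (vertical), both as log2(TPM + 1), with the line of equal levels. Most of the 53 other B lineage genes (blue) lie near the line, with a median absolute gap of 0.20. The 24 immunoglobulin genes and Jchain (red) lie on both sides of it, the immunoglobulin genes with a median absolute gap of 3.29. Some blue genes, named after their values were seen, lie off the line. In triple null 1 and 2, Cr2 was at 3.35 and 15.1 TPM, Pou2f2 at 9.72 and 27.2 TPM and Derl3 at 0.717 and 3.01 TPM. Siglecg had the opposite order, at 5.08 and 1.58 TPM.

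Immunoglobulin genes were also frequent among the largest gaps between the triple null replicates. Of the 15 tested genes whose gap there exceeded 4 on the log2 scale, 9 were immunoglobulin genes, and of the 20 largest gaps 11 were. In wild type 1 of 7 genes with such a gap was an immunoglobulin gene, in Scribble null 0 of 10 and in Yap1 Taz null 2 of 13. The median absolute gap of the 24 immunoglobulin genes was 0.32 in wild type, 0.31 in Scribble null, 0.75 in Yap1 Taz null and 3.29 in the triple null. Over all tested genes it was 0.24 to 0.31 in the 4 pairs, smallest in the triple null. Immunoglobulin genes were 24 of the 16064 genes tested. Of the 24, 5 passed the filter on low values only through the triple null libraries. The 24 include the members Igkc, Ighm and Ighj4, which were listed for this gap. Ighm is among the 9 above, and both Ighm and Igkc are among the 11. These counts and medians are therefore a description.

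The other genes of the B lineage were taken from 4 lists of surface and signalling genes, pro-B and pre-B genes, transcription factors and plasma cell genes, 72 genes in all, of which 53 were tested. With limma, 0 of the 53 were called in each of the 3 comparisons. At an unadjusted p under 0.05, 7 were higher and 5 lower in Scribble null, 4 and 3 in Yap1 Taz null, and 7 and 3 in the triple null, where 18.2%, 14.3% and 10.9% of all tested genes passed in either direction. Their median log2 difference from wild type was 0.21, 0.11 and 0.19, where the median over all tested genes was 0.14, 0.14 and 0.12 (−0.0025, −0.0089 and −0.0065 after median-ratio scaling). Cd37, Xbp1 and Hsp90b1, and Vpreb1, which passed the filter on low values only through the triple null libraries, lay above the other 6 in both triple null libraries, as 4.23% of all tested genes did. They are named after their values were seen, and nothing is read from their number.

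Among the 25 surface and signalling genes, the most abundant were Cd37, a tetraspanin found on many leukocytes, Swap70, a signalling adaptor, Btk, a kinase downstream of the receptor, and Plcg2, its phospholipase target. Cd37 was at 86.8 and 82.2 TPM in wild type, 54.6 and 69.7 TPM in Scribble null, 93.9 and 85.3 TPM in Yap1 Taz null, and 117 and 120 TPM in triple null 1 and 2, and the log2 difference of the triple null from wild type was 0.48 ± 0.16 (SE) with a limma adjusted p of 0.314. Btk overlapped between groups, with 52.8 and 50.7 TPM in wild type against 46.1 and 61.7 TPM in the triple null. Of the list, 4 B cell markers, Fcrl1, Fcmr, Blk and Ly6d, were at 0 in the 8 libraries. The list summed to 377 to 411 TPM in the other 6 libraries and 468 and 461 TPM in the triple null.

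Among the 15 pro-B and pre-B genes, Cd24a, a surface glycoprotein also carried by other immature cells, was at 366 and 407 TPM in wild type against 501 and 501.9 TPM in the triple null, and held most of the list's sum. Cplx2, Lef1 and Myl4, the next in level, had means under 10 TPM in each group. Vpreb1, part of the surrogate light chain, was at 1.77 and 1.45 TPM in triple null 1 and 2 and at 0.113 to 0.640 TPM in the other 6 libraries (limma adjusted p of 0.382 against wild type). The genes given next were picked after their values were seen. Rag1, a recombinase gene needed to join segments, did not exceed 0.00957 TPM. Rag2, the other gene of that recombinase, was at 0.966 to 1.88 TPM in the 8 libraries, with 1.09 and 1.12 TPM in triple null 1 and 2. Il7r, which failed the filter on low values, was at 0.682 and 0.584 TPM in triple null 1 and 2 and at 0.101 to 0.511 TPM in the other 6 libraries. Dntt, which adds bases at the joins, was at 0 in 7 libraries and 0.490 TPM in Scribble null 1.

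Among the 16 transcription factors, Bcl11a, Spi1, Ikzf1 and Tcf12, which act in progenitors as well as in B cells, were the most abundant. Bcl11a was at 124 and 126 TPM in wild type, 123 and 142 TPM in Scribble null, 150 and 171 TPM in Yap1 Taz null, and 146 and 139 TPM in the triple null. The sum of the list was 565 to 693 TPM in the other 6 libraries and 646 and 626 TPM in the triple null, within that range. The factors given next were picked after their values were seen. Pou2af1, a co-activator of immunoglobulin promoters that failed the filter on low values, was at 0.381 and 0.305 TPM in triple null 1 and 2. It was at 0.0278 TPM in Scribble null 1 and 0 in the other 5 libraries. Irf8 had the opposite order, with triple null 1 and 2, at 1.07 and 1.48 TPM, below the range of the other 6, 1.85 to 3.38 TPM. With limma, 1 of the 14 tested factors was higher in the triple null (Tcf12) and 1 lower (Irf8) at an unadjusted p under 0.05. In both triple null libraries, Bach2 and Id3 lay below wild type, and Tcf3, Foxo1, Bcl11a, Pou2f2 and Relb above it.

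Plasma cells carry a large secretory apparatus, so the 16 plasma cell genes include chaperones and transport genes that all cells use. Hsp90b1, a chaperone of the endoplasmic reticulum, was at 327 and 353 TPM in wild type, 271 and 248 TPM in Scribble null, 269 and 296 TPM in Yap1 Taz null, and 384 and 442 TPM in triple null 1 and 2 (limma adjusted p of 0.473 for the triple null). Xbp1, a transcription factor of the secretory pathway, was at 31.8 and 48.3 TPM in wild type, 48.9 and 35.7 TPM in Scribble null, 36.7 and 35.5 TPM in Yap1 Taz null, and 64.1 and 61.9 TPM in the triple null (adjusted p of 0.359). Sec11c, of the signal peptidase, was at 159 and 181 TPM in wild type, 260 and 176 TPM in Scribble null, 144 and 178 TPM in Yap1 Taz null, and 189 and 200 TPM in the triple null, which lay above wild type but within the range of Scribble null. Herpud1 overlapped between wild type, at 31.4 and 47.8 TPM, and the triple null, at 39.4 and 36.5 TPM.

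The surface and differentiation markers of plasma cells given next were picked after their values were seen, and in the triple null they were at 1.08 TPM or less. Sdc1, the surface marker CD138, was at 0.410 and 0.717 TPM in triple null 1 and 2 and at 0.383 to 1.82 TPM in the other 6. Mzb1, a chaperone of IgM assembly, was at 0.632 and 0.415 TPM against 0 to 0.608 TPM, and Tnfrsf17, the survival receptor BCMA, at 0 and 0.381 TPM against 0 to 0.208 TPM. Prdm1, the factor of plasma cell differentiation, was at 0.934 and 1.08 TPM in the triple null and reached 5.88 TPM in Scribble null 1. Slamf7, a surface receptor of plasma cells and other leukocytes, failed the filter on low values and was at 0.929 and 1.06 TPM in triple null 1 and 2 against 0.206 to 0.812 TPM, so both lay above the other 6. The list summed to 594 to 741 TPM in the other 6 libraries and 798 and 851 TPM in the triple null. The part of plasma or B cells in the antibody levels was not tested.

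**Figure D5:**
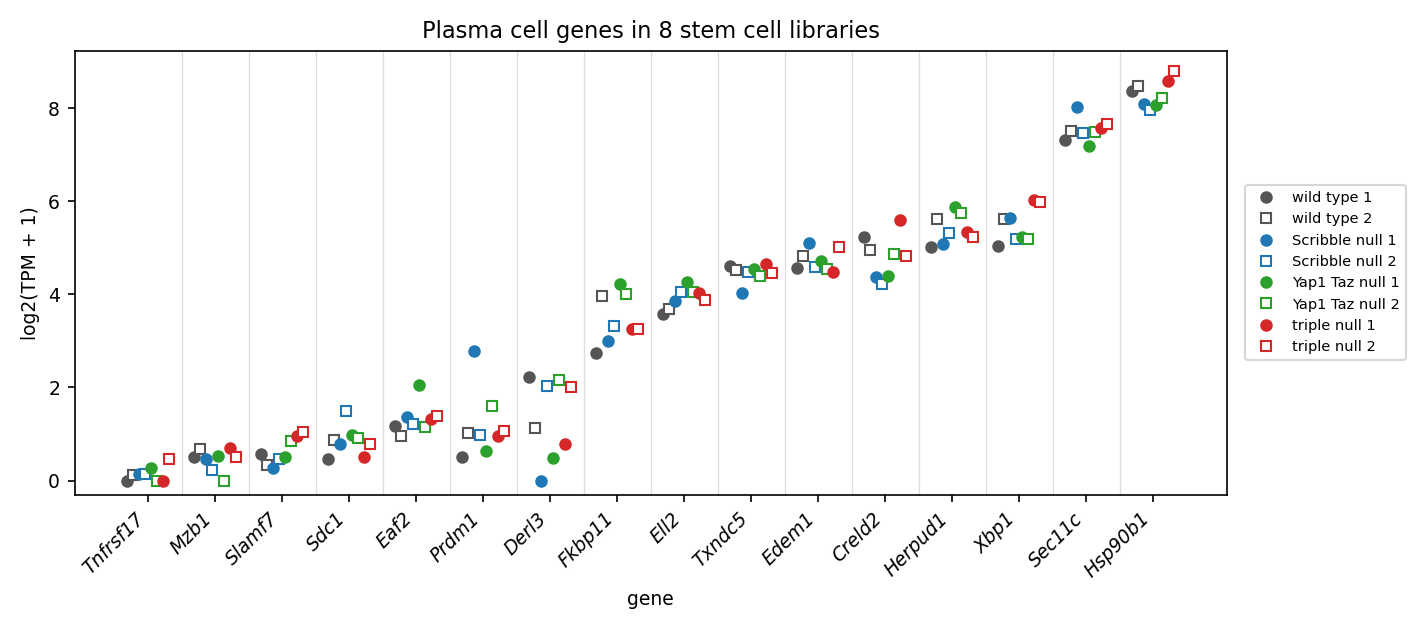
Level of the 16 plasma cell genes in each library as log2(TPM + 1), ordered by mean TPM, with colour for genotype, filled circles for replicate 1 and open squares for replicate 2. The 2 triple null libraries lie near each other and near the other 6 for most genes, and Tnfrsf17, Mzb1 and Sdc1 stay below 2 TPM.

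B cells also carry MHC class II, and 2 of its genes were lower in all 3 null genotypes than in wild type. H2-Aa, a class II chain, was at 1402 and 1507 TPM in wild type, 127 and 105 TPM in Scribble null, 234 and 258 TPM in Yap1 Taz null, and 310 and 304 TPM in the triple null. Its log2 differences from wild type were −3.64, −2.56 and −2.24, with limma adjusted p of 1.96e-05, 4.21e-05 and 0.000121. Cd74, the invariant chain, was at 674 and 768 TPM in wild type, 106 and 113 TPM in Scribble null, 105 and 168 TPM in Yap1 Taz null, and 284 and 289 TPM in the triple null, with log2 differences of −2.71, −2.43 and −1.33 and limma adjusted p of 0.000612, 0.0012 and 0.0380. The triple null call of Cd74 was lost without either wild-type, Scribble null or triple null library (adjusted p of 0.0687 to 0.272), with no filter (0.117) and in the table of the whole series (0.103). Ciita, the class II activator, was at 4.28 and 5.41 TPM in wild type, 0.630 and 1.80 TPM in Scribble null, 1.39 and 1.66 TPM in Yap1 Taz null, and 1.68 and 2.02 TPM in the triple null, and was not called (limma adjusted p of 0.105, 0.207 and 0.362).

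The neighbouring cell types were covered by other marker lists. The 10 early lymphoid genes summed to 541 to 666 TPM in the other 6 libraries and 622 and 655 TPM in the triple null, within that range. Of these, Cd27 and Mef2c, the most abundant, were not called with limma in the 3 comparisons.

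Of 15 T and NK cell markers 7 were tested, and 1, Nkg7, a granule membrane protein of cytotoxic cells, was called lower in Yap1 Taz null, at 68.3 and 56.2 TPM against 152 and 137 TPM in wild type (log2 difference −1.21, limma adjusted p of 0.0440). That call was lost without any wild-type, Yap1 Taz null or triple null library (adjusted p of 0.101 to 0.332) and with no filter on low values (0.118). Trbc2, Ncr1, Gzma and Klrd1 were at 0 in the 8 libraries, and the list summed to 92.0 to 175 TPM in the other 6 and 139 and 130 TPM in the triple null. With limma, 0 of 7 plasmacytoid dendritic, 0 of 4 monocyte, 0 of 5 erythroid, 0 of 1 neutrophil and 0 of 12 stem cell markers tested were called in the 3 comparisons; in the triple null, 1 plasmacytoid dendritic, 1 monocyte, 1 erythroid, 0 neutrophil and 6 stem cell markers had an unadjusted p under 0.05 in either direction, where 10.9% of all tested genes did. In Scribble null these numbers were 4, 1, 2, 0 and 4 (18.2% of all tested genes), and in Yap1 Taz null 1, 1, 1, 0 and 4 (14.3%), in the same order. Sums of the plasmacytoid dendritic markers were 212 to 318 TPM in the other 6 and 287 and 261 TPM in the triple null, with Cox6a2 and Klk1 at 0. Those of monocyte markers, led by Lyz2, were 180 to 261 TPM and 297 and 242 TPM, with C1qa at 0. Those of erythroid markers were 23.3 to 60.9 TPM and 60.04 and 75.2 TPM.

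The genes whose pattern over the 8 libraries was most like that of each member were found by the root mean square difference of log2(TPM + 1) profiles, each centred on its own mean. Nearest to Igkc were Ighv9-4 (0.28), Igha (0.281) and Igkv14-111 (0.423), and nearest to Ighm were Ighv9-3 (0.388), Iglv2 (0.425) and Iglc2 (0.553). Jchain was nearest to Igkc (0.529), Ighv8-8 (0.551) and Igkv14-111 (0.604). Ighj4 had no close neighbour, with Igha at 1.22, Igkc at 1.27 and Igkv14-111 at 1.39. For these 4 members, the 3 nearest of the tested genes with a name were immunoglobulin genes. The profiles of these members hold the triple null values by which they were listed, so this likeness is a description.

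The neighbours of the receptor and adaptor genes lay elsewhere. Cd79a was nearest to Hyls1 (0.169), Hsd11b2 (0.195) and Mthfd2l (0.199), Cd79b to Scp2 (0.088), Slc39a10 (0.106) and Uimc1 (0.11), and Blnk to Vcpip1 (0.059), Smarca5 (0.064) and Zeb1 (0.065). Profiles that hardly vary lie close to many genes: the range over the 8 libraries was 0.59 for Blnk and 0.94 for Cd79b on the log2 scale, and 6.66 for Igkc, 6.33 for Ighm, 4.96 for Jchain and 8.19 for Ighj4.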

How the data were processed

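Per the labels' protocols, RNeasy-extracted RNA was amplified (Ovation RNA-Seq v2) and prepared with Nextera XT, giving 8 libraries. The authors deposited a TPM table per library, per the file headers. The submitters' processing notes name TopHat and mm10, and the quantifier is not given in the sources used here. The authors also deposited a table of the whole series, with linear signal values in an unnamed unit, used only as an alternative; 27458 of its 28987 identifiers matched a symbol.

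The members and gene lists were chosen with earlier results of these data known. Genes of at least 1 TPM in at least 2 libraries were fitted with limma 3.58.1 (R 4.3.3) on log2(TPM + 1), with a mean-variance trend and a mean for each of the 4 groups (4 residual and 4.002 prior degrees of freedom). The wild-type libraries serve all 3 comparisons. Folds on this scale understate the change of low genes. The model was tested on simulated data.

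The genes named are the members, the 10 immunoglobulin genes of highest TPM, up to 4 per list by smallest p (where the list has a call) and up to 4 by mean TPM, the 3 nearest in pattern to each tested member (gene models without a name left out), and H2-Aa, Cd74 and Ciita. Others were picked with their values in view, as said beside them, the targeted genes and near copies aside. Some genes that the rule names are not reported here. Coordinates and sequences are from GENCODE M21 (GRCm38, which is mm10), and copies were found with BLAST 2.17.0. Alternatives were pseudocounts of 0.1 and 0.5, no filter and a filter of 5 TPM, median-ratio and quantile scaling, a replicate block, the table of the whole series, and each library left out.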

Additional observations from a re-analysis of the deposited data

Results flagged for a closer look

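The table of the whole series, used only as an alternative to the TPM tables, held 5 immunoglobulin genes that are not members at a value above 10 in a triple null library, and over 10 times both wild-type values. Its unit is not named, so values compare only within it. Igkj1 was at 157 in triple null 2, against 0 and 1.12 in wild type and 5.22 in triple null 1. Igkj5 was at 57.4 in triple null 2, against 1.06 and 2.02 in wild type and 7.09 in triple null 1. Iglc2 was at 173 in triple null 1, against 1.10 and 1.79 in wild type and 8.14 in triple null 2, and Ighj1 was at 44.9, against 0.838 and 0.802 in wild type and 1.75 in triple null 2. Igkv1-115 was at 106 in triple null 2, against 0.631 and 1.83 in wild type and 2.20 in triple null 1, whereas the TPM tables list it at 0 in the 8 libraries. The differences between the triple null libraries had the same direction in this table as in the TPM tables for the first 4 genes.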

How the results depend on the processing

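The TPM tables give no depth, so what depth limits is unknown, and 2 libraries per group leave 4 residual degrees of freedom. Genes called in Scribble null, 209, became 127 with no filter on low values, 110 with the replicate block and 100 in the table of the whole series, and 47 (without wild type 1) to 221 (without Scribble null 2) with a library left out. In Yap1 Taz null, 159 became 53 to 134 with a library left out, and in the triple null 93 became 39 to 85, lowest without wild type 1 in both. The split of 95 higher and 114 lower genes in Scribble null became 60 and 218 under median-ratio scaling, 76 and 83 in Yap1 Taz null became 36 and 96 (53 and 94 under quantile normalization), and 36 and 57 in the triple null became 25 and 67. Members called in Scribble null, 0, became 1 (Ighj4) with a pseudocount of 0.1 or 0.5, and 0 to 1 with a library left out. In Yap1 Taz null, 1 became 0 with no filter, median-ratio scaling, quantile normalization, the replicate block and the table of the whole series, and 0 to 1 with a library left out. In the triple null, 1 became 0 in the table of the whole series and 1 to 3 with a library left out. Other B lineage genes called stayed at 0 under each alternative run. The median absolute gap between the triple null libraries over the 9 members, 0.25, became 0.65 with a pseudocount of 0.1 and 0.53 in the table of the whole series, where the gaps of Igkc, Ighm, Jchain and Ighj4 were −3.93, 4.56, −2.57 and −2.78. The median log2 difference of all tested genes, 0.14, 0.14 and 0.12, became −0.0025, −0.0089 and −0.0065 under median-ratio scaling, and changes read relative to that shift. No fitted difference recomputed for a gene named in the text, and no gap of these 4 members, changed sign. Causes were not tested. The replicate numbers share only a label: differences between replicates 1 and 2 correlated at −0.0531 to 0.0257 over the 6 pairs of genotypes, and with the replicate block the limma adjusted p of Nkg7 in Yap1 Taz null was 0.0895.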
